A study of Homo sapiens with 6 samples.

Results

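The genes described here encode the SR proteins, the hnRNP proteins and a small set of other factors that choose splice sites. They were taken as the protein-coding genes whose symbol begins with SRSF followed by a number or with HNRNP, together with TRA2A, TRA2B, SF3B1, U2AF1, U2AF2, PTBP1, PTBP2, PTBP3, RBFOX2, MBNL1, MBNL2, QKI, SRRM1, SRRM2 and SON. This rule found 54 genes among 61533 gene rows, of which 19871 were annotated as protein-coding. The rule itself uses names and not measured values. By role they were 14 SR and TRA2 genes, 27 hnRNP genes, 7 regulators of the PTB, RBFOX, MBNL and QKI type, 3 genes of 3' splice site recognition and 3 genes of large nuclear speckle proteins.

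The libraries came from MDA-MB-231, a human breast cancer cell line of the triple-negative class. One group of 3 libraries came from cells that carried an empty vector (EV; genotype label WT), and the other group of 3 came from cells with a short hairpin RNA against KDM2B (shKDM2B; genotype label KDM2B knockdown). Total RNA was taken from subconfluent cultures and ribosomal RNA was removed before sequencing. KDM2B is a histone demethylase that binds unmethylated CpG-rich DNA and recruits a variant Polycomb complex. The labels call the replicates biological without stating whether they were separate cultures or separate infections, so the p-values speak only of differences among these 6 libraries. The column names of the knockdown libraries all carry the same code, which the labels do not explain. The series has 1 knockdown group, so effects of KDM2B loss and other effects of the hairpin RNA cannot be told apart.

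An intron is removed by the spliceosome, which recognises the branch point and the 3' splice site through SF3B1 and the U2AF heterodimer. SR proteins carry arginine- and serine-rich domains, mostly bind exons and recruit the spliceosome, whereas hnRNP proteins coat nascent transcripts and often block a site. Many genes of both families regulate their own mRNA by splicing in exons or retaining introns that lead to nonsense-mediated decay. PTB, MBNL, RBFOX and QKI proteins change exon choice according to where they bind relative to the exon, and they differ between tissues.

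KDM2B had 589, 714 and 902 counts in the EV libraries and 153, 166 and 224 in the shKDM2B libraries. Its groups did not overlap, and 23.1% of the EV level was left (log2 fold change -2.12, SE 0.08, adjusted p 8.77e-11). The libraries held 10190149 to 15737951 counts each, so that 3 counts correspond to 0.191 to 0.294 CPM, the count scaled to the library's size. EV replicate 2 stood apart from the other EV libraries (chi-square per degree of freedom over genes of 5.43 and 6.11, against 1.89 between replicates 1 and 3), and shKDM2B replicate 1 stood apart from the other shKDM2B libraries (6.80 and 8.74, against 2.03). Small RNA genes took 0.497% of counts in shKDM2B replicate 1 and 0.134% to 0.198% in the other libraries. Mitochondrially encoded genes took 0.0767% to 0.151% of counts in EV and 0.196% to 0.476% in shKDM2B libraries, with groups apart. The part of either in the splicing factor values was not tested. Of the markers of the line, VIM, CD44, EGFR, AXL and CAV1 were all detected, with a summed level of 6100 to 6521 CPM in EV and 5910 to 6139 CPM in shKDM2B libraries. Within that sum VIM fell (log2 fold change -1.68) and CAV1 fell (-0.35), while CD44, EGFR and AXL rose (0.20, 0.19 and 0.17). Of 5 luminal breast genes, ESR1 and PGR, the hormone receptors that a triple-negative line lacks, reached at most 4 and 3 counts. ERBB2 was detected at 54.6 to 70.9 CPM in EV and 58.1 to 65.2 CPM in shKDM2B and did not pass the threshold, nor did GATA3, at 55 to 115 counts. FOXA1, at 57 to 131 counts, rose (0.46). None of 5 leukocyte and none of 5 fibroblast markers passed the low-count filter. Their summed levels were 0.194 to 0.381 and 0.0972 to 0.362 CPM in EV, and 0.875 to 1.11 and 0.0972 to 0.613 CPM in shKDM2B. In these bulk libraries, fewer cells expressing a gene and less RNA per cell cannot be told apart.

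Most of these splicing factors shifted by little, and more of them fell than rose. Of 54 genes, 47 passed the filter on low counts. After KDM2B knockdown 8 rose, 21 fell and 18 did not pass the threshold, an adjusted p under 0.05 in edgeR's quasi-likelihood test with Benjamini-Hochberg adjustment over all 14071 tested genes. In total 61.7% of the measured members were called, beside 60.9% of all tested genes. By direction, 17.0% of members rose beside 30.5% of all tested genes, and 44.7% fell beside 30.4%. The median log2 fold change was -0.16 over the members and -0.01 over all tested genes, and the median size of change, without its sign, was 0.22 and 0.36. Called changes of at least 1.5-fold were found in 7 members (14.9%), beside 28.5% of all tested genes. These 7, like the 21 that fell, include HNRNPA1L3, whose reads may come from HNRNPA1. The groups did not overlap in 37 of 47 members (78.7%), beside 65.5% of all tested genes. Tested against a change of 1.2-fold, 4 members rose and 8 fell, and 38.8% of all tested genes were called.

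**Figure D1:**
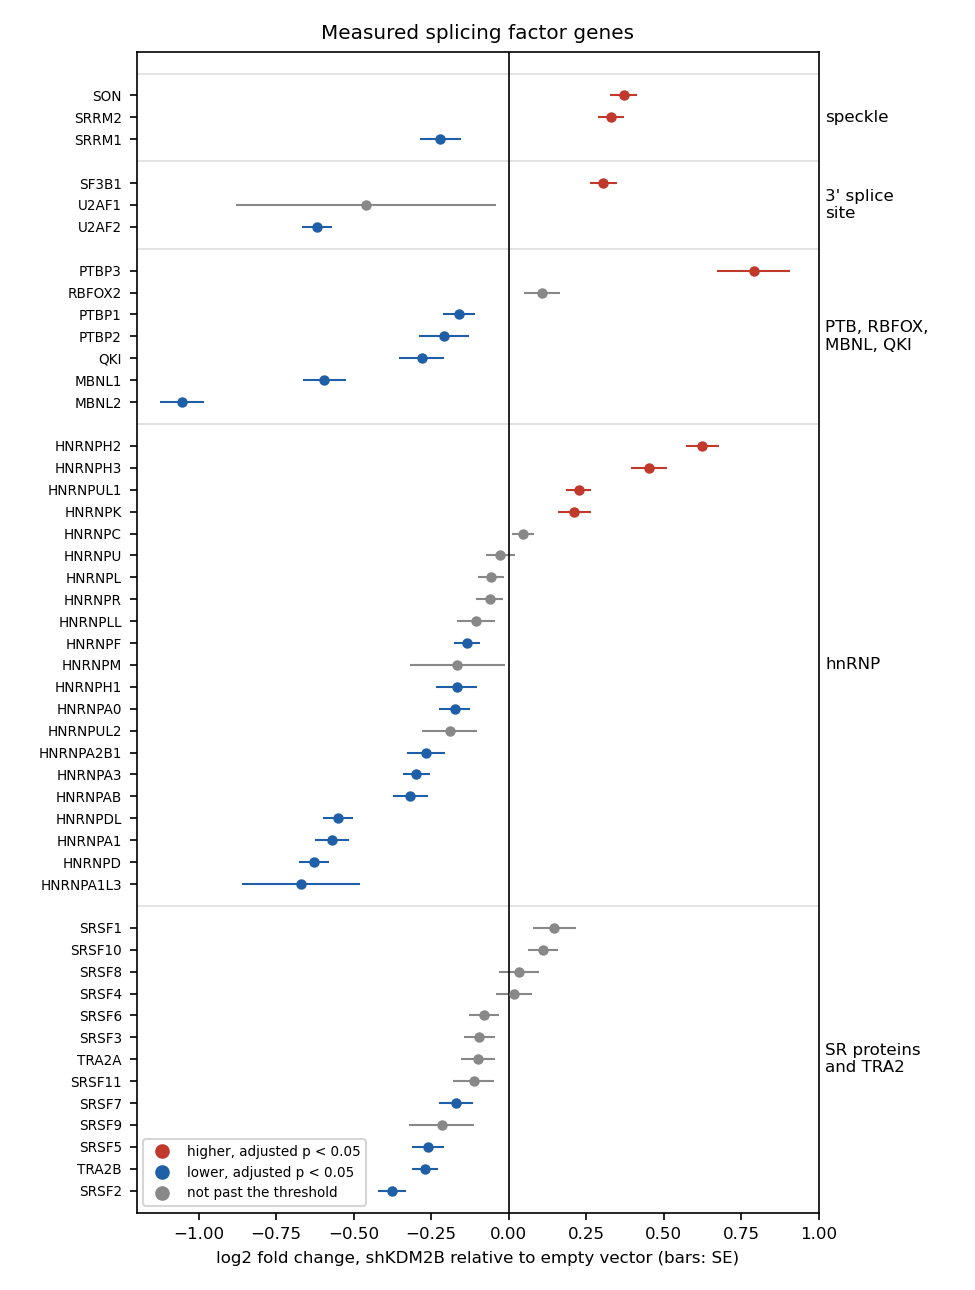
Log2 fold change of each of the 47 measured genes in shKDM2B relative to empty vector libraries (x axis), grouped by role (labels at right), with bars for the SE; red points rose, blue points fell and grey points did not pass an adjusted p of 0.05. PTBP3 at 0.79 and MBNL2 at -1.05 are the extremes, and no SR gene lies among the 8 that rose.

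The 7 genes that failed the filter were SRSF12 and HNRNPUL2-BSCL2, each with at most 2 counts in any library, and HNRNPA1L2 and the 4 genes HNRNPCL1 to HNRNPCL4, all 5 with 0 counts in every library. HNRNPUL2-BSCL2 is a read-through transcript unit that covers 44.1% of the annotated exon bases of HNRNPUL2. The measured members together took 1.45% ± 0.0122 (SD, n = 3) of all counts in EV and 1.36% ± 0.0170 in shKDM2B libraries. By role, the hnRNP share was 0.762% ± 0.0157 in EV and 0.699% ± 0.0105 in shKDM2B, and the SR share was 0.247% ± 0.000825 and 0.223% ± 0.00496. The speckle share went the other way, from 0.137% ± 0.00199 to 0.163% ± 0.00300. For these 3 shares the groups did not overlap, and an exact permutation test of 3 against 3 cannot give a two-sided p below 0.1. In the remaining role shares the groups overlapped. The PTB, RBFOX, MBNL and QKI regulators took 0.222% ± 0.0231 in EV and 0.194% ± 0.00348 in shKDM2B. Their overlap came from EV replicate 2 alone, at 0.195%. The other EV libraries were at 0.233% and 0.237%, and the shKDM2B libraries at 0.190% to 0.196%. The genes of 3' splice site recognition took 0.0836% ± 0.00296 and 0.0856% ± 0.00128.

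Per kilobase of annotated exon, HNRNPK was the highest of the measured members in EV, at 185.6 CPM per kb, followed by HNRNPF at 139.1, PTBP1 at 131.3, HNRNPA1 at 126.8 and HNRNPAB at 125.4. From HNRNPF to HNRNPAB, each gene overlapped the next in its EV libraries, so neighbours in that order do not differ beyond their spread. Among SR genes SRSF2 was the highest, at 91.9 CPM per kb, and SRSF4 the lowest, at 10.8. PTBP2, the PTB paralog best known from neurons, had 2.22 CPM per kb. The length is that of all annotated exons joined, retained introns included, which lowers the value of genes with many such transcripts. It also includes bases shared with another gene, 56.6% of them for SRSF1 and 36.7% for SRSF2. How reads in such stretches were counted was not given in the sources used here, so the order of the SR genes is uncertain.

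SR proteins and their TRA2 relatives fell or did not pass the threshold. Of 13 measured genes, SRSF2, SRSF5, SRSF7 and TRA2B fell, 0 rose and 9 did not pass (log2 fold changes from -0.22 to 0.15). The share called, 30.8%, lies beside 60.9% of all tested genes. The median of the 13 was -0.10.

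SRSF2, which binds exonic enhancers and is also a target of recurrent mutations in blood cancers, is at chromosome 17, 76734115 to 76737374, minus strand, in GRCh38. Its levels were 278.5, 274.6 and 279.0 CPM in EV replicates 1 to 3 and 209.4, 213.1 and 218.3 CPM in shKDM2B replicates 1 to 3. All 3 shKDM2B libraries lay below all EV libraries, and SRSF2 fell 1.30-fold (log2 fold change -0.38, SE 0.05, adjusted p 6.54e-06). MFSD11 on the opposite strand overlaps 36.7% of the annotated exon bases of SRSF2, and the strand setting of the counting was not given in the sources used here, so reads of the pair cannot be told apart in that stretch.

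TRA2B, a sequence-specific activator of exons, had 372.3, 375.5 and 376.0 CPM in EV and 310.6, 315.0 and 306.3 CPM in shKDM2B libraries. The EV libraries differed among themselves by less than their distance to any shKDM2B library, and the gene fell 1.21-fold (-0.27, SE 0.04, adjusted p 8.30e-05). Its paralog TRA2A had a log2 fold change of -0.10 and an adjusted p of 0.133. TRA2A made up 39.2% ± 1.21 of the summed CPM per kb of the pair in EV and 42.0% ± 0.419 in shKDM2B libraries. SRSF5 and SRSF7 fell, with log2 fold changes of -0.26 and -0.17. The call of SRSF7 was lost without shKDM2B replicate 3 (-0.15, adjusted p 0.0621).

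Of the SR genes that did not pass, SRSF1, a long-studied SR protein, had a log2 fold change of 0.15 (adjusted p 0.0791), with 192.2, 165.4 and 206.8 CPM in EV against 210.4, 211.9 and 203.0 CPM in shKDM2B. EV replicate 2 was the lowest library and the groups overlapped. A same-strand protein-coding locus covers 56.6% of the annotated exon bases of SRSF1 and had at most 1 count. SRSF9 had -0.22 (adjusted p 0.100), and GATC on the opposite strand covers 46.2% of its exon bases. The other 7, SRSF3, SRSF4, SRSF6, SRSF8, SRSF10, SRSF11 and TRA2A, lay from -0.11 to 0.11. Leaving out EV replicate 2 brought lower calls for SRSF6, SRSF11 and TRA2A, at -0.09, -0.19 and -0.11. Leaving out EV replicate 3 brought a higher call for SRSF1, at 0.21, and a lower one for SRSF9, at -0.33. SRSF9 was also called lower without the low-count filter, at -0.24.

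Within the hnRNP family 10 of 21 measured genes fell and 4 rose, and subfamilies went different ways. All 8 measured genes of the A, AB and D groups fell, as did HNRNPF and HNRNPH1. The 8 include HNRNPA1L3, whose reads may come from HNRNPA1, so it may not be a separate result. HNRNPH2, HNRNPH3, HNRNPK and HNRNPUL1 rose. HNRNPC, HNRNPU, HNRNPL, HNRNPR, HNRNPM, HNRNPLL and HNRNPUL2 did not pass (log2 fold changes from -0.19 to 0.05). The share called was 66.7%, beside 60.9% of all tested genes. Except for HNRNPH1, the groups of every called hnRNP gene did not overlap. Of all 21 measured hnRNP genes, called or not, 18 (85.7%) had groups apart, beside 65.5% of all tested genes.

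HNRNPA1, a repressor of exons that also shuttles mRNA, had 635.1, 695.8 and 606.1 CPM in EV and 458.7, 428.0 and 417.4 CPM in shKDM2B libraries. Every shKDM2B library was below every EV library, a 1.49-fold fall (-0.57, SE 0.05, adjusted p 6.17e-07; chromosome 12, 54280193 to 54287088, plus strand). HNRNPA1 has many processed copies in the genome, and reads can be split among them. In these libraries 32 of its 74 annotated pseudogenes had counts, which together came to 4.87% to 5.79% of the counts of HNRNPA1. With the gene summed with 76 copies, namely those 74 pseudogenes, HNRNPA1L2 and HNRNPA1L3, a setting chosen after the data were seen, the log2 fold change stayed at -0.57 (adjusted p 4.24e-07).

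HNRNPA1L3, named as a copy-like gene of HNRNPA1 and annotated on chromosome 16, was low, with 5.54, 4.10 and 5.43 CPM in EV and 2.92, 2.80 and 3.65 CPM in shKDM2B. The groups did not overlap (1.59-fold lower; -0.67, SE 0.19, adjusted p 0.00706). As its reads may come from HNRNPA1, its value is uncertain. HNRNPA3, a close relative, had 381.1, 385.1 and 370.1 CPM in EV and 307.1, 307.9 and 308.9 CPM in shKDM2B libraries. The 3 shKDM2B values of HNRNPA3 were nearly equal and all lower (1.23-fold; -0.30, SE 0.04, adjusted p 3.69e-05). HNRNPAB, a related RNA binder, had 269.0, 285.7 and 251.8 CPM in EV and 219.5, 207.0 and 220.6 CPM in shKDM2B. It fell 1.25-fold with groups apart (-0.32, SE 0.06, adjusted p 1.91e-04). HNRNPA2B1 and HNRNPA0 also fell, with log2 fold changes of -0.27 and -0.17.

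HNRNPD, also known as AUF1, binds AU-rich elements in mRNA and takes part in their decay, and HNRNPDL is its paralog. Both lie on the minus strand of chromosome 4, HNRNPD at 82352498 to 82374503 and HNRNPDL at 82422564 to 82430408. HNRNPD had 286.5, 296.6 and 274.8 CPM in EV and 187.3, 180.5 and 187.2 CPM in shKDM2B, and HNRNPDL had 336.8, 346.2 and 318.2 CPM in EV and 228.5, 232.9 and 222.2 CPM in shKDM2B. In both genes the highest shKDM2B library was far below the lowest EV library. HNRNPD fell 1.55-fold (-0.63, SE 0.05, adjusted p 7.23e-08), and HNRNPDL fell 1.46-fold (-0.55, SE 0.05, adjusted p 2.97e-07).

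Of the genes that rose, HNRNPH2 and HNRNPH3 belong to the H/F group, which binds runs of G. HNRNPH2, on the X chromosome (101408295 to 101414133, plus strand), had 71.9, 73.8 and 74.6 CPM in EV and 118.7, 111.2 and 109.8 CPM in shKDM2B libraries. HNRNPH3, on chromosome 10, had 57.7, 57.6 and 57.1 CPM in EV and 83.4, 78.8 and 73.8 CPM in shKDM2B. The EV libraries of both were close together and all shKDM2B libraries lay above them. HNRNPH2 rose 1.54-fold (0.62, SE 0.05, adjusted p 1.74e-07) and HNRNPH3 rose 1.37-fold (0.45, SE 0.06, adjusted p 1.24e-05). The read-through unit RPL36A-HNRNPH2 shares 16.3% of the exon bases of HNRNPH2 and had 0 counts in every library.

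HNRNPF and HNRNPH1, the other members of that group, fell, with log2 fold changes of -0.14 and -0.17. HNRNPH1 was the only called gene of the 29 whose groups overlapped, and its call was lost without EV replicate 2 (adjusted p 0.119), without shKDM2B replicate 1 (0.0554) or without shKDM2B replicate 3 (0.200). The call of HNRNPF was lost without shKDM2B replicate 2 (adjusted p 0.0647) or replicate 3 (0.0535). Without EV replicate 1, HNRNPUL2 was called lower, at -0.24 (adjusted p 0.0487). Of the summed CPM per kb of the 4 genes, HNRNPH2 took 14.8% ± 0.484 in EV and 22.3% ± 0.484 in shKDM2B libraries, and HNRNPH3 took 4.79% ± 0.139 and 6.41% ± 0.229. The share of HNRNPF was 62.3% ± 0.750 and 55.5% ± 1.06, and that of HNRNPH1 was 18.1% ± 0.972 and 15.8% ± 0.832. None of these shares overlapped between the groups. The sum itself was 219.3, 231.5 and 219.2 CPM per kb in EV and 233.9, 228.6 and 222.4 in shKDM2B. In this total of the 4 genes the groups overlapped only through EV replicate 2. EV replicates 1 and 3 lay below all shKDM2B libraries.

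HNRNPK, a poly(C)-binding protein with roles in transcription and mRNA processing, had 1014, 859.8 and 973.5 CPM in EV and 1080, 1096 and 1122 CPM in shKDM2B. EV replicate 2 was the lowest library, and the groups did not overlap (1.16-fold higher; 0.21, SE 0.05, adjusted p 0.00290). Without EV replicate 2 the log2 fold change was 0.14 and stayed past the threshold. HNRNPUL1, a relative of the nuclear scaffold protein HNRNPU, had 508.9, 483.2 and 499.1 CPM in EV and 581.9, 580.2 and 580.8 CPM in shKDM2B. All shKDM2B libraries of HNRNPUL1 were higher and nearly equal (1.17-fold; 0.23, SE 0.04, adjusted p 2.47e-04). HNRNPM illustrates the weight of a single library. It had 276.9 CPM in EV replicate 2 against 191.1 and 186.7 CPM in the other EV libraries, and 192.0 to 198.5 CPM in shKDM2B (log2 fold change -0.17, adjusted p 0.390).

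The promoters of the paired paralogs are shown because HNRNPD and HNRNPDL fell together while HNRNPH2 and HNRNPH3 rose together, and all 4 hold the same short word. The RefSeq table for GRCh38.p14, which gives 250 bases before to 50 bases after each gene's start, matched 47 of the 54 genes. Each sequence reads 5′ to 3′ on the gene's strand, and capitals mark CACGTG, the palindromic E-box that MYC with MAX and other basic helix-loop-helix factors can bind. The windows are chr4:82373942-82374241 on the minus strand for HNRNPD, chr4:82430176-82430475 on the minus strand for HNRNPDL, chrX:101407972-101408271 on the plus strand for HNRNPH2 and chr10:68331443-68331742 on the plus strand for HNRNPH3.
HNRNPD: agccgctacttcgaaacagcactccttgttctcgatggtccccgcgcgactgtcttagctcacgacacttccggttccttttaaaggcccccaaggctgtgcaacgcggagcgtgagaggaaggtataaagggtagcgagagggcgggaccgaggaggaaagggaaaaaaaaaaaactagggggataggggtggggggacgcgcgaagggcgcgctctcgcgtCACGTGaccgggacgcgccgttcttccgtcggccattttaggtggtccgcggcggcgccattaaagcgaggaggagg
HNRNPDL: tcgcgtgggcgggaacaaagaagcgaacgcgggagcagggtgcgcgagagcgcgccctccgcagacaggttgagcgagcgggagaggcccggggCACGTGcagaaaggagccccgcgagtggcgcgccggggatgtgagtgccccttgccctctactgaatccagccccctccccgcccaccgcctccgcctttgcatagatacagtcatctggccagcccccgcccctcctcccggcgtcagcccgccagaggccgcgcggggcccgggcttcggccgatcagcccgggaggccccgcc
HNRNPH2: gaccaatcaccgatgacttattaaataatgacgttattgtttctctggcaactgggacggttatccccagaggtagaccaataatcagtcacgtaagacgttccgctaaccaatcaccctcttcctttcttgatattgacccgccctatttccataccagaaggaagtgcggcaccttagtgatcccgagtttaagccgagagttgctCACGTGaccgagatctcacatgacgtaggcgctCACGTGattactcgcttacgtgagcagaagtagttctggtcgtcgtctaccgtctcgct
HNRNPH3: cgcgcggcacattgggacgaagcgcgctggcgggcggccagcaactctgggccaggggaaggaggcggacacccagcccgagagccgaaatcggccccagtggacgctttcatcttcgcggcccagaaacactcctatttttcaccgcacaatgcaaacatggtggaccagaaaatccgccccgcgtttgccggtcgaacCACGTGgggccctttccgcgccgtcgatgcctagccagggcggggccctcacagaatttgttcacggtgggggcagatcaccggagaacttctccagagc

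The word CACGTG, which reads the same on both strands, occurs once in the HNRNPD, HNRNPDL and HNRNPH3 windows and 2 times in that of HNRNPH2. Of the 41 measured members with a promoter in the table, 8 (19.5%) hold it, beside 10.1% of 9837 tested protein-coding genes. It was found in 4 of 8 members that rose (HNRNPH2, HNRNPH3, HNRNPUL1 and SF3B1), in 3 of 17 that fell (HNRNPA3, HNRNPD and HNRNPDL) and in 1 of 16 that did not pass (HNRNPM). The members were so few that these shares are a description of these genes. The word TGATGCAA, a C/EBP-ATF type element that ATF4 can bind, was searched on both strands and was in 0 of the 41 windows, beside 0.498% of the tested protein-coding genes. The 41 windows held a median of 31 CG dinucleotides, beside 26 over the tested protein-coding genes. The median was 28.5 for members that rose, 31 for those that fell and 32.5 for those that did not pass. The ends of that range among measured members were SRSF8 with 3 and SRSF4 with 48, neither of which passed the threshold, while PTBP3 held 42. The window listed for MBNL2 held 4, at chr13:97141584-97141883. It lies far before the annotated start of the counted gene, 97221434, so it may not be the promoter of the counted transcripts. Other windows also miss the annotated start of their gene. That of SRSF8 ends at 95066926, before the gene's start at 95067197. Those of SRSF5, MBNL1 and HNRNPH3, among others, begin after the start of the gene, so the same limit holds for them.

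**Figure D2:**
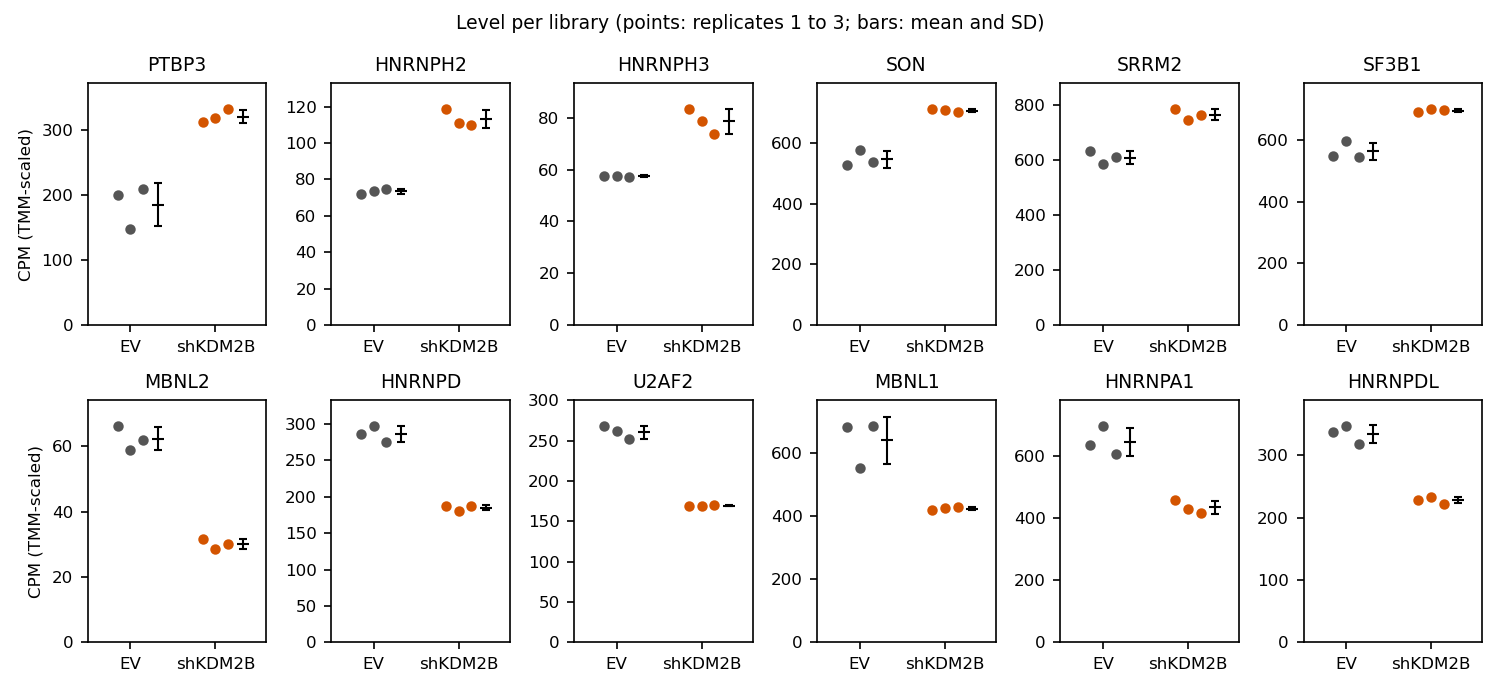
Level of 12 splicing factor genes in each library in TMM-scaled CPM (y axes start at 0), with grey points for EV replicates 1 to 3, orange points for shKDM2B replicates 1 to 3, and the mean and SD beside each group. In the upper row every shKDM2B library lies above every EV library, and in the lower row every one lies below; EV replicate 2 is the lowest EV point of PTBP3 and MBNL1.

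The regulators of tissue-type exon choice held the extreme changes of all 47 genes. PTBP3 rose, MBNL2, MBNL1, QKI, PTBP2 and PTBP1 fell, and RBFOX2 did not pass (log2 fold change 0.11, adjusted p 0.118). All 7 had groups that did not overlap, beside 65.5% of all tested genes. That 6 of 7 were called (85.7%) stands beside 60.9% of all tested genes.

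PTBP3, also known as ROD1, a polypyrimidine tract-binding paralog, lies on chromosome 9 at 112217716 to 112333667 on the minus strand. It had 200.7, 147.4 and 209.5 CPM in EV and 312.7, 318.5 and 333.1 CPM in shKDM2B. EV replicate 2 was well below the other EV libraries, and all shKDM2B libraries were higher than all EV libraries. The gene rose 1.73-fold (0.79, SE 0.12, adjusted p 4.18e-04), and without EV replicate 2 it rose by 0.64 on the log2 scale.

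PTBP1, the widely expressed member, had 929.7, 824.0 and 957.6 CPM in EV and 787.6, 820.2 and 820.0 CPM in shKDM2B. The highest shKDM2B library lay just below the lowest EV library (-0.16, SE 0.05, adjusted p 0.0150), and the call was lost without EV replicate 3 (adjusted p 0.0620) or without shKDM2B replicate 1 (0.0960). PTBP2 fell by 0.21 (SE 0.08, adjusted p 0.0342), from 28.7 ± 1.30 to 25.0 ± 1.07 CPM. Its call was lost with DESeq2 (adjusted p 0.105), with the replicate number as a block (0.0536), without EV replicate 3 (0.121) and without any 1 shKDM2B replicate (0.0548 to 0.139). Per kilobase, PTBP3 made up 15.1%, 12.8% and 15.2% of the PTB family in EV and 24.6%, 24.2% and 25.1% in shKDM2B libraries. PTBP1 made up 84.2% ± 1.27 and 74.2% ± 0.390. The summed level of the 3 genes was 161.6, 139.8 and 166.9 CPM per kb in EV and 154.4, 159.8 and 161.4 in shKDM2B. The shKDM2B sums lay inside the EV range only through EV replicate 2. EV replicate 1 lay just above the highest shKDM2B sum, and EV replicate 3 lay above it too.

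MBNL1 and MBNL2, muscleblind proteins that promote adult exon patterns, both fell. MBNL2, on chromosome 13 at 97221434 to 97394120 on the plus strand, had 66.1, 58.9 and 62.1 CPM in EV and 31.6, 28.5 and 30.2 CPM in shKDM2B. Each shKDM2B library held less than any EV library by a wide margin, a 2.07-fold fall (-1.05, SE 0.07, adjusted p 1.54e-08). MBNL1, on chromosome 3, had 682.2, 552.8 and 684.5 CPM in EV and 418.8, 424.7 and 427.6 CPM in shKDM2B. EV replicate 2 was again the lowest EV library, and the groups did not overlap (1.51-fold lower; -0.59, SE 0.07, adjusted p 9.65e-06). Without EV replicate 2, the fall of MBNL1 was -0.70.

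The paralog MBNL3, which is outside the rule and was listed among other regulators, fell by 0.57 (adjusted p 2.57e-05). The summed level of the 3 MBNL genes was 71.6 to 86.8 CPM per kb in EV and 51.5 to 52.4 in shKDM2B libraries. MBNL2 made up 15.6% ± 1.07 of it in EV and 11.8% ± 0.613 in shKDM2B, and MBNL1 made up 78.4% ± 1.01 and 81.8% ± 0.673. For each of the 12 gene shares of the PTB, MBNL, HNRNPF/H and TRA2 families the groups did not overlap. Among all tested genes, taken singly, this was so for 65.5%. The exact two-sided permutation p was 0.1 for each share, the smallest that 3 against 3 libraries allow. Adjustment over the 12 leaves it at 0.1. As the shares of a family add up to 100%, the 12 are not separate results.

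**Figure D3:**
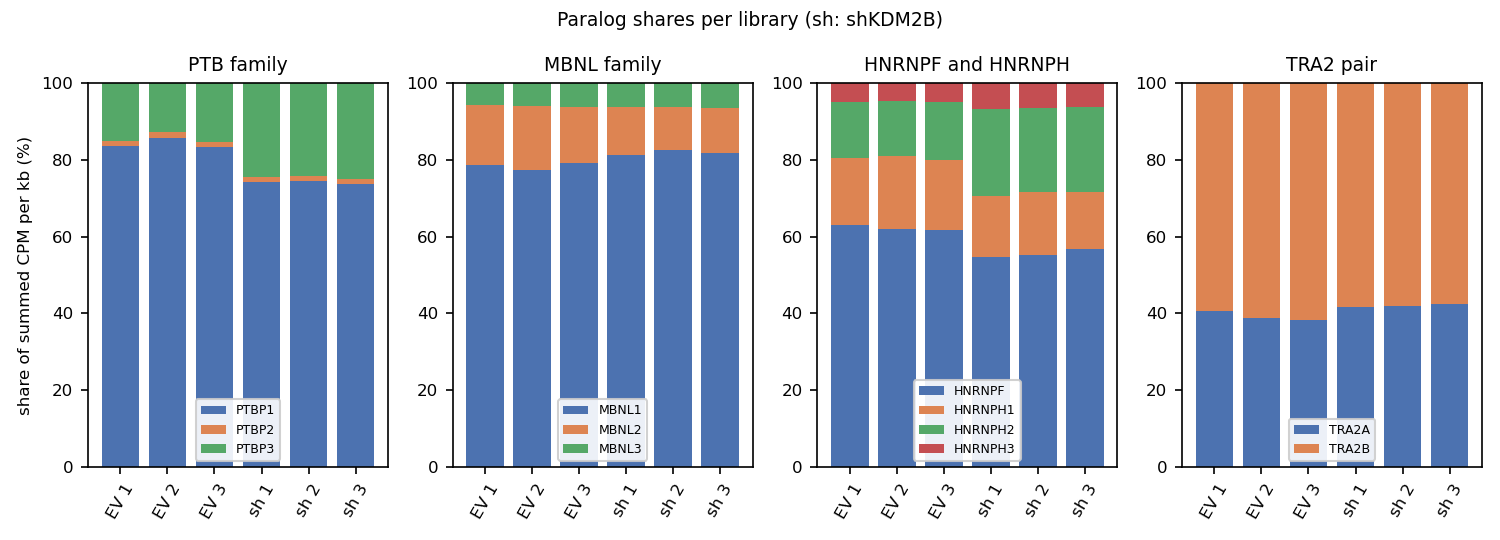
Share of each paralog (y axis, % of the summed CPM per kb of its family) in each of the 6 libraries (x axis), for the PTB, MBNL, HNRNPF/H and TRA2 families. PTBP3 takes 12.8% to 15.2% of its family in EV and 24.2% to 25.1% in shKDM2B libraries, and HNRNPH2 goes from a mean of 14.8% to 22.3%.

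QKI, a STAR-domain protein that binds ACUAA-type elements, had 225.4, 179.4 and 219.2 CPM in EV and 168.0, 173.4 and 172.6 CPM in shKDM2B. EV replicate 2 lay just above the highest shKDM2B library and the other EV libraries lay well above it (1.21-fold lower; -0.28, SE 0.07, adjusted p 0.00412). QKI and PTBP1 were the 2 of 47 measured members (4.26%) whose annotated 3' UTR, in the longest coding transcript, holds the 6-base word CGACAC, beside 4.97% of 11984 tested protein-coding genes. The word was searched on the transcript strand because it went with lower counts across all genes in earlier work on these data. In the same data 50.3% of the genes that hold it fell, beside 30.5% of the others. As the word was picked for that difference, the contrast gives no independent support. The 2 sites are shown with the word in capitals, at base 2263 of the 7886-base 3' UTR of QKI and base 477 of the 1501-base 3' UTR of PTBP1. Whether the word has a part in either change was not tested.
QKI: tgaataaatttgCGACACtcaaacacttga
PTBP1: cggccgcggctgCGACACcccaaccccagc

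The genes of 3' splice site recognition differed in direction. SF3B1, the branch-point subunit of the U2 snRNP, is at chromosome 2, 197389784 to 197435091, minus strand. It had 546.4, 595.4 and 545.7 CPM in EV and 688.8, 700.0 and 695.6 CPM in shKDM2B. All shKDM2B libraries were higher, and the gene rose 1.24-fold (0.30, SE 0.04, adjusted p 3.45e-05). U2AF2, the large U2AF subunit that binds the polypyrimidine tract, is at chromosome 19, 55654146 to 55674715, plus strand. It had 268.1, 262.0 and 251.6 CPM in EV and 169.7, 168.7 and 170.9 CPM in shKDM2B libraries. All shKDM2B libraries of U2AF2 lay together below the EV libraries, a 1.53-fold fall (-0.62, SE 0.05, adjusted p 6.38e-08).

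U2AF1, the small subunit that reads the AG at the 3' splice site, could not be measured well. It had 6.22, 8.57 and 2.90 CPM in EV and 2.53, 5.87 and 3.97 CPM in shKDM2B libraries, with overlapping groups (log2 fold change -0.46, SE 0.42, adjusted p 0.376). Single libraries moved this value widely. Without EV replicate 3 it was called lower, at -0.84 (adjusted p 0.0195), and without shKDM2B replicate 2 it was -0.76 (0.135). Without EV replicate 2 it was -0.08 (0.892), and without shKDM2B replicate 1 it was -0.24 (0.645). U2AF1 has a near-identical annotated copy, U2AF1L5, whose counts were 43.3% to 157.5% of its own. Summing both rows, a setting chosen after the data were seen, gave -0.47 (SE 0.21, adjusted p 0.0715). How reads that fit both copies were counted was not given in the sources used here, so no level of U2AF1 is read from its row.

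The large speckle proteins SON and SRRM2, which form the core of nuclear speckles, rose, while SRRM1 fell. SON had 526.1, 578.1 and 535.8 CPM in EV and 712.0, 707.3 and 701.1 CPM in shKDM2B, with all shKDM2B libraries above EV (1.29-fold; 0.37, SE 0.04, adjusted p 5.26e-06). SRRM2 had 631.0, 585.2 and 608.9 CPM in EV and 784.9, 744.7 and 763.6 CPM in shKDM2B, also with groups apart (1.26-fold; 0.33, SE 0.04, adjusted p 1.15e-05). SRRM1, an exon junction-associated coactivator, had 220.0, 184.6 and 218.5 CPM in EV and 183.4, 181.1 and 170.6 CPM in shKDM2B. EV replicate 2 of SRRM1 lay just above the highest shKDM2B library (-0.22, SE 0.07, adjusted p 0.00990), and the call was lost without shKDM2B replicate 3 (adjusted p 0.0600). MALAT1, a long noncoding RNA of nuclear speckles, made up 0.101% ± 0.00576 of counts in EV and 0.287% ± 0.0354 in shKDM2B. Its part in the speckle gene values was not tested.

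The other genes of the splicing pathway were read from 8 lists. Genes of the snRNP core were mostly lower. Of 19 measured Sm, LSm and U1/U2 snRNP proteins, 14 fell and 0 rose (median log2 fold change -0.35), led by LSM2, a subunit of the U6 ring, at -1.64, then LSM7 at -0.70, LSM6 at -0.68 and LSM5 at -0.51. Of 13 SF3a and SF3b subunits and partners other than SF3B1, 10 fell and 1 rose (median -0.35). SF3A3 went from 205.6 ± 12.8 to 106.2 ± 6.11 CPM (-0.95), and SF3B5, PHF5A and DDX46 fell, at -0.68, -0.59 and -0.53. The 1 that rose, SF3B3, a partner of SF3B1 in SF3b, was at 0.39 (adjusted p 4.50e-06) and is named because of that count. Of 23 U4/U6.U5 and PRP19 complex genes, 16 fell and 1 rose (median -0.25). PRPF8, the central scaffold of the spliceosome, went from 1122 ± 53.4 to 686.9 ± 21.0 CPM (-0.71), and BUD31, PPIH and SART1 fell, at -0.56, -0.52 and -0.51, with overlapping groups for SART1. The background for these counts is 30.4% of all tested genes lower and 30.5% higher.

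Helicases and minor spliceosome genes included both directions, beside 30.5% higher and 30.4% lower among all tested genes. Of 11 helicases and second-step factors, 2 rose (CDC40 at 0.27, SLU7 at 0.21), 1 fell (DHX15 at -0.27) and 8 did not pass (median 0.03). Of 12 minor spliceosome genes, 4 rose and 3 fell (median -0.03). PDCD7, a U11/U12 protein, fell from 20.3 ± 0.775 to 8.58 ± 0.327 CPM (-1.24), while ARMC7 and SNRNP48 rose by 0.59 and 0.54 and ZCRB1 fell by 0.31.

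For the remaining lists too, the background is 30.4% of all tested genes lower and 30.5% higher. Among the kinases and importins of SR proteins, 6 of 11 measured genes fell and 3 rose (median -0.16). TNPO3, which carries SR proteins into the nucleus, fell by 0.48 and TNPO2 by 0.31, the SR protein kinase SRPK1 fell by 0.29, and the kinase DYRK1A rose by 0.36. Of 45 measured other hnRNP-class proteins and regulators, 19 fell and 7 rose (median -0.04). The extreme among those at 5 CPM or more was the desmosome- and speckle-associated factor PNN, from 79.2 ± 8.81 to 41.1 ± 4.47 CPM (-0.95), followed by the PTBP1 partner RAVER1 at -0.81, RALY at -0.77 and MBNL3. MATR3 was counted in this list from a single low row, at 2.21 ± 0.541 CPM in EV and 0.627 ± 0.148 CPM in shKDM2B. That row had -1.78 and was named after its value was seen. Any other row of that symbol was not read here. Of 18 exon junction complex and nonsense-mediated decay genes, 7 fell and 3 rose (median -0.13), with UPF3B at -0.50, UPF2 at 0.39, and MAGOHB and SMG5 both at -0.35.

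**Figure D4:**
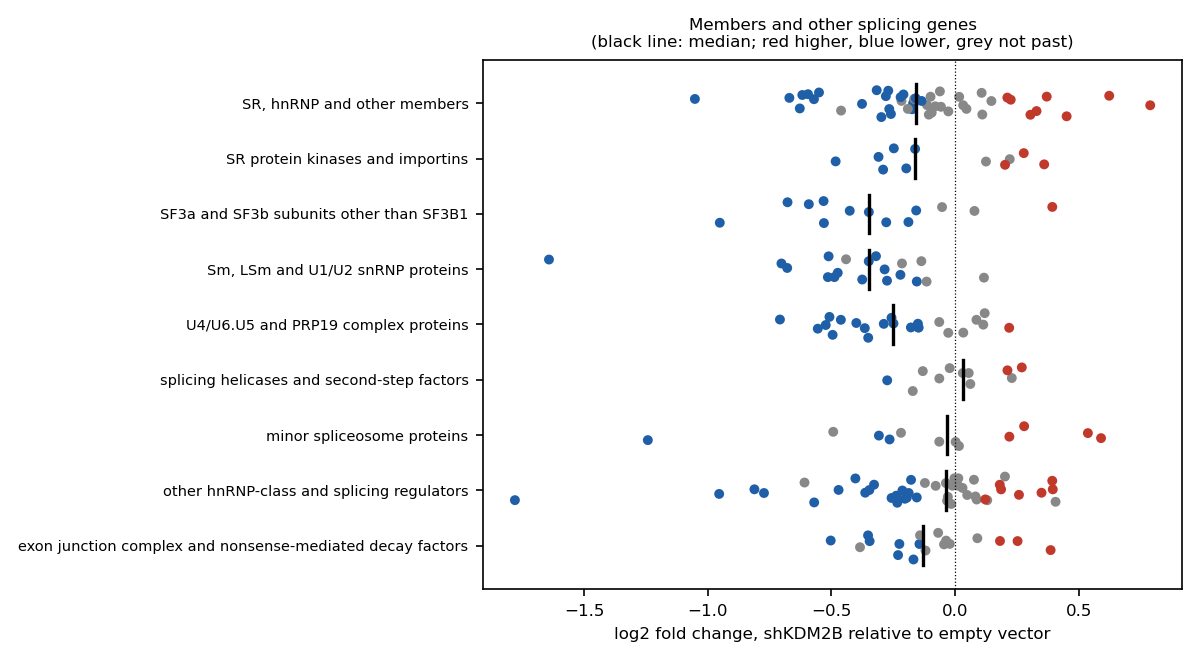
Log2 fold change of each measured gene in shKDM2B relative to empty vector libraries (x axis) for the 47 members and 8 lists of other splicing genes (y axis; vertical scatter within a row has no meaning), with the median of each as a black line. The SF3, Sm/LSm and U4/U6.U5 rows lie mostly to the left of 0, with medians of -0.35, -0.35 and -0.25.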

How the data were processed

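RNA of MDA-MB-231 cells with an empty vector or shKDM2B (3 libraries each) was sequenced after ribosomal depletion. The deposited table holds raw counts per gene made by the authors. Per the submitters' processing notes, STAR, featureCounts and Trim Galore, and the packages limma, edgeR and DESeq2, were used with GRCh38 (versions, roles and strand setting not given in the sources used here). Symbols were matched by Ensembl ID for 61415 of 61533 rows, and GENCODE 29 gave positions and lengths for 58356. Genes were kept by edgeR's filterByExpr (minimum count 10, minimum total 15), scaled by TMM and tested two-sided over all 6 libraries with edgeR 4.0.16's robust quasi-likelihood test in R 4.3.3. Adjusted p-values are Benjamini-Hochberg over all 14071 tested genes, with 0.05 as the threshold. DESeq2 1.42.0, limma-voom (limma 3.58.1), other filters and scalings, a test against 1.2-fold, a replicate block and leaving out each library were tried.

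Values in every library were given for up to 12 called members with the largest change in each direction and for role groups of 4 or fewer. From each related list up to 4 called genes of at least 5 CPM were named. Members, lists and searched words were chosen with earlier results of these data known. Levels per kb divide CPM by all annotated exon bases. A floor of 3 counts covers counting error only.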

Additional observations from a re-analysis of the deposited data

How the results depend on the processing

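The 16 other settings left the sign of all 29 called members as it was, and 12 of them also stayed past the threshold in all 16. Of the 18 members not past the threshold, 11 stayed so and 14 kept their sign. The counts of 8 members higher and 21 lower became 4 and 8 in the test against a 1.2-fold change (all genes: 2797 and 2661). They ranged from 8 to 9 and from 16 to 23 when 1 library was left out. The members' median of -0.16 was -0.14 with limma-voom and ranged from -0.16 to -0.11 when 1 library was left out. The test against 1.2-fold ended the calls of HNRNPK, HNRNPUL1, SF3B1, SRRM2, HNRNPA0, HNRNPA2B1, HNRNPA3, HNRNPAB, HNRNPF, HNRNPH1, PTBP1, PTBP2, QKI, SRSF5, SRSF7, TRA2B and SRRM1.

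In the related lists, the 1.2-fold test left 1 higher and 1 lower SR kinase and importin gene, 6 lower SF3 genes, 6 lower Sm and LSm genes, 0 higher and 8 lower U4/U6.U5 genes, 0 and 0 helicases, 2 and 1 minor spliceosome genes, 2 and 7 other regulators, and 1 and 1 exon junction and decay genes. DESeq2 called 0 higher U4/U6.U5 genes and 2 higher and 1 lower minor spliceosome genes. Without the low-count filter, 2 helicases were lower and 2 minor spliceosome genes higher, and the medians of the SR kinase, other regulator and decay lists were -0.045, -0.10 and -0.16. When 1 library was left out, the median ranged from -0.15 to -0.0064 for SR kinases and importins, from -0.29 to -0.19 for U4/U6.U5 genes, from -0.16 to -0.088 for exon junction and decay genes, from -0.15 to 0.027 for minor spliceosome genes and from -0.087 to -0.038 for other regulators. Counts then ranged from 0 to 3 higher U4/U6.U5 genes, from 2 to 3 higher and 1 to 3 lower minor spliceosome genes, and from 2 to 4 higher and 1 to 3 lower helicases.

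Replicate numbers do not pair the libraries by the labels, and the deviations of same-numbered libraries correlated at 0.12, -0.03 and 0.08. With the replicate number as a block 8 members were higher and 21 lower, with a median of -0.14. The block also called SRSF9 lower (adjusted p 0.0293) and ended the call of PTBP2. The cause of the changes between settings was not tested. U2AF1 and HNRNPA1L3, at 2.5 to 8.6 CPM, are the measured members that depth limits most, and reads shared with copies may limit both too.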

Other observations

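SRRM3, a neuronal paralog of SRRM2 that was too low for the count filter, had 1, 1 and 1 counts in the EV libraries and 12, 9 and 20 in the shKDM2B libraries. RBFOX3, a neuronal paralog of RBFOX2, had 9, 7 and 14 counts in EV and 2, 2 and 6 in shKDM2B. Both were chosen after their values were seen. In edgeR's quasi-likelihood test without the low-count filter their adjusted p-values were 1.53e-06 and 0.0116, on few counts. NOVA1 and RBFOX1, which regulate neuronal exons, had 0 counts in every library, and SRRM4 had at most 2.

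Transcripts annotated as targets of nonsense-mediated decay exist for 35 of the 47 measured members (74.5%), beside 43.5% of 11995 tested protein-coding genes. Annotated retained-intron transcripts exist for 34 of 47 (72.3%), beside 58.2%. Of members with a decay transcript 40.0% fell, beside 58.3% of those without one. Over the tested protein-coding genes the order was the other way, with 33.5% and 29.8%. The members are so few that their order is a description of these genes only. Gene counts do not separate such transcripts from the coding ones.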
